A study of Homo sapiens with 3 samples.

Results

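S phase cells of a lung carcinoma line and of 2 derivatives of it were compared in single-cell RNA sequencing data. They were picked by the RNA of 10 replication genes: PCNA, MCM2, MCM3, MCM4, MCM5, MCM6, MCM7, GINS2, TYMS and CLSPN, counted together as UMIs (unique molecular identifiers, one per captured RNA molecule) per 10000 UMIs of the cell and called the S score. An M score was formed in the same way from CCNB1, CCNB2, CDC20, PLK1, UBE2C, CENPF, TOP2A, TPX2, HMMR and CDKN3, which peak around mitosis. Among cells with at least 5000 UMIs, those in the top 20% of their own culture by the S score and outside its top 20% by the M score were taken. They numbered 818 of 4956 cells in ldR-H460, 632 of 5151 in mdR-H460 and 609 of 4531 in H460, or 2059 of 14638 cells in all. Both scores are measured values, so the levels of these 20 genes describe the choice of cells and are given as descriptions.

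ldR-H460 and mdR-H460 are the long-term and mid-term derivatives obtained when H460 cells went through a reprogramming procedure. H460, the parent of both, is a widely used human cell line established from large-cell carcinoma of the lung. The labels' growth protocol describes irradiated human fibroblasts used as a feeder layer and as the source of conditioned medium for the derivatives. All 3 cultures were grown in flasks before droplet capture of 3' RNA ends, and the reprogramming agents, the times behind mid-term and long-term and the number of clones are not given in the sources used here. Each culture gave 1 library. No difference below therefore has a replicate check or a p-value, and what differs between cultures cannot be told apart from what differs between libraries. The intervals in brackets are exact 95% intervals that cover counting error only. Levels are given as CPM: a gene's UMIs in the S phase cells of a culture, over all UMIs of those cells, times 1e6. These sums held 10910565 UMIs in ldR-H460, 11533184 in mdR-H460 and 10677656 in H460, and the median S phase cell had 13242, 17953 and 17413 UMIs in the same order. No S phase cell of ldR-H460 had 4000 or more detected genes, against 98 of mdR-H460 and 142 of H460. Among all cells with at least 5000 UMIs the most detected genes were 3998 in ldR-H460, 4993 in mdR-H460 and 4987 in H460. Whether the authors' quality filtering used different upper limits was not tested.

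Before a cell copies its DNA, the origin recognition complex with CDC6 and CDT1 loads the MCM helicase on origins in G1. Cyclin E and E2F activity then carry the cell over the G1/S boundary, and CDC45 and the GINS complex turn MCM into a moving helicase. Polymerases and primase make DNA on the sliding clamp PCNA, nucleotide enzymes feed them, checkpoint proteins such as claspin watch the fork, and histones, DNA methylation and cohesion are rebuilt behind it. Many of these genes are transcribed together by E2F factors, whereas genes of G2 and mitosis come on later through other promoter elements. In tumour lines S phase is also where nucleoside drugs and topoisomerase poisons act.

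Promoters of 4 genes are shown. PCNA (the sliding clamp) and GINS2 (a GINS subunit) are S score genes that the naming rule fixed. CDC6 (the licensing factor) and CCNB1, an M score gene which encodes mitotic cyclin B1, were added after their values were seen. Levels of the 3 score genes depend on the cuts. Each window spans 250 bases before to 50 bases after the RefSeq gene start on GRCh38.p14, reads 5′ to 3′ along the gene, and lies at chr20:5126573-5126872 on the minus strand for PCNA, at chr16:85688905-85689204 on the minus strand for GINS2, at chr17:40287629-40287928 on the plus strand for CDC6 and at chr5:69166900-69167199 on the plus strand for CCNB1. Capitals mark a match to an E2F-type motif, searched as TTTCGCGC, TTTGGCGC, TTTCCCGC and TTTGCCGC on both strands, and no window shown held more than 1 match.
PCNA: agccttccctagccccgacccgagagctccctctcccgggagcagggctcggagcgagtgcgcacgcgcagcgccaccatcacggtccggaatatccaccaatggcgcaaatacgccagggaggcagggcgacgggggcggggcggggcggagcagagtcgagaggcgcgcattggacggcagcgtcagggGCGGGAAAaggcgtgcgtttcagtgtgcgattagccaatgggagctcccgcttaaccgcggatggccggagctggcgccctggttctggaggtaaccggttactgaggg
GINS2: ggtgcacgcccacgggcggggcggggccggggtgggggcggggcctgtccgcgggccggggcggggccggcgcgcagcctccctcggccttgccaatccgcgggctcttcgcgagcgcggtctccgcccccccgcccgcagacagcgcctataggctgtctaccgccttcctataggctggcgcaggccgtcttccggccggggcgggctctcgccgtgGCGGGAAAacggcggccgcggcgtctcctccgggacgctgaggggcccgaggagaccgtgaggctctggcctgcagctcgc
CDC6: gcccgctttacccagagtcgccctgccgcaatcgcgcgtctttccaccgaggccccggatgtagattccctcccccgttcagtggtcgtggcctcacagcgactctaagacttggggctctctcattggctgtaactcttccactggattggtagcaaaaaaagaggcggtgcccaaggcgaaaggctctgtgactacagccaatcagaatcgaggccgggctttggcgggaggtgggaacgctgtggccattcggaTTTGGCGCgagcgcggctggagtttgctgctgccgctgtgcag
CCNB1: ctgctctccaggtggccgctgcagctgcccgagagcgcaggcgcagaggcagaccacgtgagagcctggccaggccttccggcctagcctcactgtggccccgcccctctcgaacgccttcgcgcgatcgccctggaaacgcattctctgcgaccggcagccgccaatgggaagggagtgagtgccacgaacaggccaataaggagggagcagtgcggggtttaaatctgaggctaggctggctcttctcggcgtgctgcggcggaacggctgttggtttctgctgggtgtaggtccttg
In PCNA and GINS2 the match is TTTCCCGC on the opposite strand, 59 and 31 bases before the start. In CDC6 it is TTTGGCGC on the gene's own strand, within the 50 bases after the start, and the CCNB1 window holds none of the 4 motifs. A motif was present in 908 of 27305 RefSeq promoters of this length (3.325%). It was present in 8 of the 8 S score genes with an entry and in 0 of the 8 M score genes with an entry. Of the other lists, 7 of 13 early S genes, 5 of 11 polymerase and primase genes, 5 of 25 homologous recombination and Fanconi genes and 3 of 34 further G2/M genes held one. Of the 10 S score genes, 3 were at least 1.5-fold lower in ldR-H460 than in H460 and 2 in mdR-H460. A match is a run of letters and not a measured binding site, and no link between a motif and a level was tested.

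The label was checked in genes that neither score used. Early S genes were at least 1.5-fold higher in S phase cells than in cells of the same culture low in both scores at 7 of 11 in ldR-H460, 11 of 11 in mdR-H460 and 13 of 13 in H460, against 1.32%, 7.30% and 7.58% of all genes. Polymerase and primase genes were higher at 0 of 7, 4 of 7 and 7 of 9. Nucleotide supply genes were higher at 0 of 24, 14 of 24 and 11 of 24. In ldR-H460 fewer genes outside the score thus bore the label. G2/M genes outside the score were higher at 0 of 34, 19 of 37 and 29 of 34. In mdR-H460 and H460 the check therefore does not separate S phase from G2. RRM2, the small subunit of ribonucleotide reductase, stood at 113, 160 and 156 CPM in S phase cells of ldR-H460, mdR-H460 and H460, against 79.5, 69.4 and 48.0 CPM in cells of the same cultures that were low in both scores. SLBP, which binds the end of histone mRNA, stood at 87.6, 91.4 and 122 CPM against 54.4, 50.7 and 63.4 CPM. KRT18, an epithelial keratin, was found at 1265, 1750 and 1267 CPM in the S phase cells. Of 12 fibroblast markers 8 were listed in the tables, and none reached 10 CPM. Together they had 6.51, 3.295 and 14.3 CPM in S phase cells of ldR-H460, mdR-H460 and H460. DCN and LUM were at 0 in ldR-H460, COL1A2 and DCN in mdR-H460, and COL1A2 in H460. Barcodes shared between libraries numbered 24 for ldR-H460 and mdR-H460, 36 for ldR-H460 and H460 and 30 for mdR-H460 and H460, and no barcode was an S phase cell in 2 libraries. Mitochondrially encoded RNA took 6.36%, 4.87% and 4.40% of the UMIs of these cells.

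The cuts that define the cells differed between cultures. The S score at the cut was 7.14 in ldR-H460, 8.20 in mdR-H460 and 9.08 in H460, and the median S score of the chosen cells was 8.68, 10.2 and 11.5. Cells low in both scores had median S scores of 3.91, 2.88 and 2.68, so the S phase cells of ldR-H460 stood closest to the other cells of their culture. The cell just inside the cut scored 7.1397, 8.2008 and 9.0871, and the cell just outside 7.1388, 8.1994 and 9.0773. Within 0.5 above the cut lay 152, 99 and 76 of the chosen cells. The M cut went the other way, at 18.1 in ldR-H460, 19.7 in mdR-H460 and 11.7 in H460, and the median M score of the chosen cells was 8.95, 10.3 and 5.41. Chosen cells of the derivatives could thus carry more mitotic RNA than chosen cells of H460, which bears on every mitotic gene below.

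**Figure D1:**
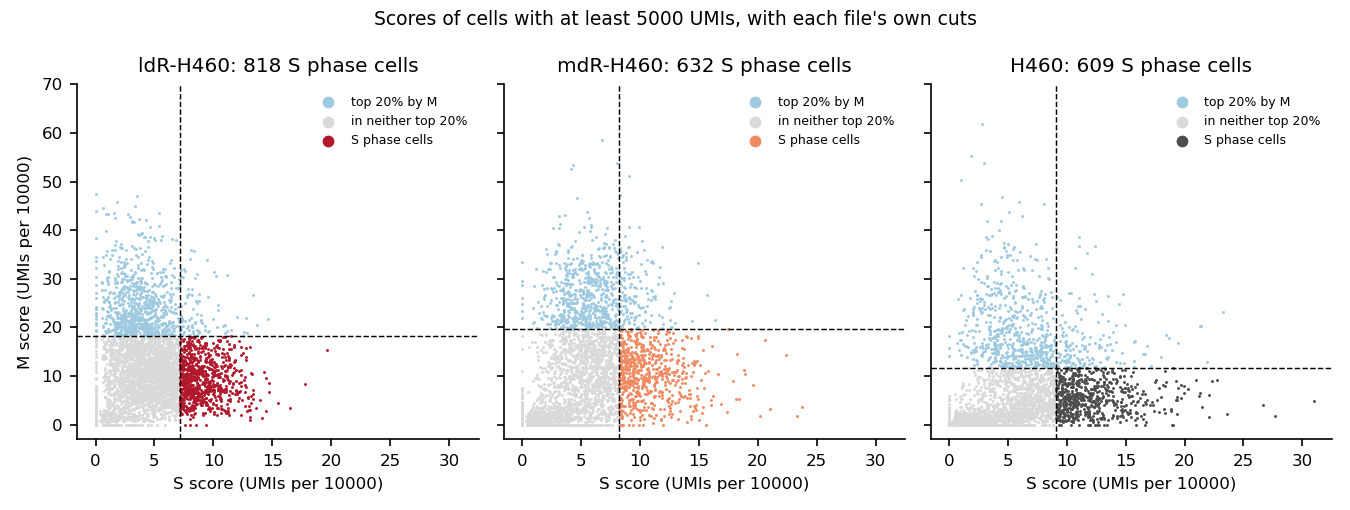
S score (horizontal) against M score (vertical), both in UMIs per 10000, for every cell with at least 5000 UMIs in ldR-H460, mdR-H460 and H460; coloured points are the S phase cells and dashed lines the cuts of each culture. The S cut lies at 7.14, 8.20 and 9.08 and the M cut at 18.1, 19.7 and 11.7, and 1 mdR-H460 cell lies above the end of the vertical axis.

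With the H460 cut in all 3 cultures, 8.16% of ldR-H460 cells (7.38 to 8.998), 14.5% of mdR-H460 cells (13.4 to 15.6) and, as set by the cut, 20% of H460 cells reached the S score. Depth moved these shares. After each cell was thinned to 5000 UMIs they were 13.4%, 19.1% and 21.5%, in the same order of cultures. Cells with no UMI of the 10 S score genes made up 5.42% of ldR-H460, 12.7% of mdR-H460 and 10.1% of H460, and 15.6%, 22.7% and 22.3% after thinning. The ldR-H460 culture thus had the fewest cells at the H460 cut and also the fewest cells without S score RNA, which is a narrower spread of the score. Cells at or above the H460 M cut made up 44.1% of ldR-H460, 39.4% of mdR-H460 and, as set by the cut, 20% of H460.

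Within the S phase cells, the 10 S score genes summed to 911 CPM in ldR-H460, 1066 CPM in mdR-H460 and 1209 CPM in H460. PCNA, which holds polymerases on DNA, had 180 CPM in ldR-H460, 294 CPM in mdR-H460 and 316 CPM in H460. ldR-H460 stood apart from the other 2 cultures at PCNA, 1.75-fold below H460. GINS2 had 69.3, 61.7 and 124 CPM, and here both derivatives lay below H460. CLSPN, which encodes the checkpoint adaptor claspin, stood at 98.1, 147 and 199 CPM. Most MCM helicase subunits lay closer together: MCM5 had 40.1, 51.5 and 51.8 CPM, MCM7 had 141, 163 and 133 CPM, and MCM2 had 26.6, 21.9 and 23.9 CPM, while MCM6 had 55.7, 42.5 and 68.0 CPM. TYMS, thymidylate synthase, was nearly level at 183, 201 and 187 CPM. These genes chose the cells, and the derivatives' lower cuts admit cells with less of their RNA.

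All genes, those of the scores included, were compared at 10 CPM or more in the higher culture of a pair. ldR-H460 was at least 2-fold above H460 at 221 of 6635 genes (3.33%) and at least 2-fold below it at 594 (8.95%). mdR-H460 was at least 2-fold above H460 at 110 of 6500 genes (1.69%) and at least 2-fold below it at 554 (8.52%). Both are set against the same H460 cells, so their values stand side by side and their likeness is no result. For gene lists, members at least 1.5-fold apart were counted. The background for these counts was 8.58% of genes higher and 21.1% lower in ldR-H460 than in H460, and 5.14% higher and 20.3% lower in mdR-H460 than in H460. The median log2 ratio of all genes to H460 was -0.15 in ldR-H460 and -0.12 in mdR-H460. TMM scaling would add 0.14 and 0.19 to every log2 ratio, and DESeq2 scaling 0.12 and 0.18. List medians are therefore to be read against the median of all genes, and a member that passes the 10 CPM minimum only through 1 culture tends to show a difference.

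**Figure D2:**
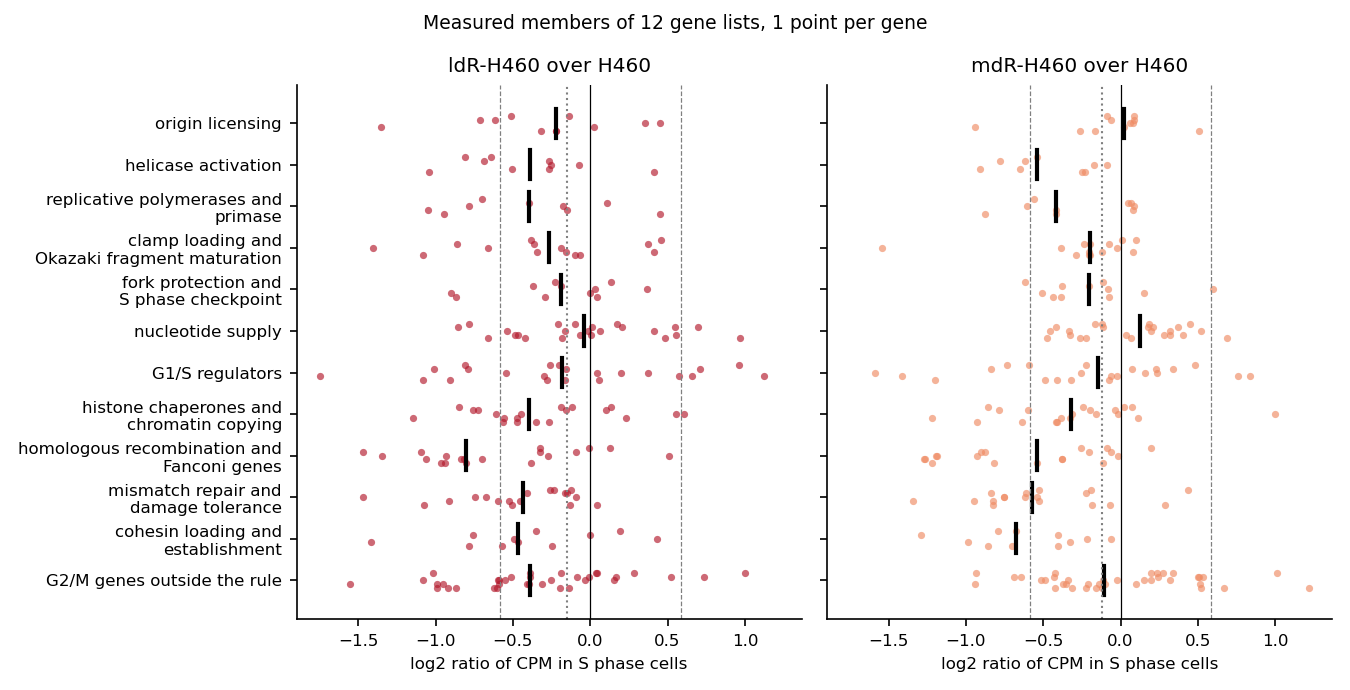
Log2 CPM ratio of each measured gene of 12 lists within S phase cells, ldR-H460 over H460 on the left and mdR-H460 over H460 on the right; black bars are list medians, the dotted line the median of all genes and dashed lines 1.5-fold. Homologous recombination and Fanconi genes lie lowest in ldR-H460 (median -0.81) and cohesin genes lowest in mdR-H460 (median -0.68).

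Licensing genes as a list were near the background, and CDC6 had the widest ratio to H460 among them in both derivatives. CDC6, which loads MCM on origins, had 26.03 CPM in S phase cells of ldR-H460, 34.7 CPM in mdR-H460 and 66.5 CPM in H460. It was 2.56-fold lower in ldR-H460 (2.22 to 2.94) and 1.92-fold lower in mdR-H460 (1.69 to 2.17) than in H460. Its partner CDT1 had 63.7, 52.9 and 49.9 CPM, and GMNN, which encodes the CDT1 inhibitor geminin, had 66.6, 105 and 109 CPM. Geminin RNA was thus lower in ldR-H460 than in the other cultures, by 1.64-fold against H460. Of 11 measured licensing genes, 3 were lower in ldR-H460 and 1 in mdR-H460, and none was higher, with medians of -0.22 and 0.02. Both shares are near or under the background.

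Among helicase activation and DNA synthesis genes, ATAD5 and the primase gene PRIM1 were at least 1.5-fold lower in both derivatives than in H460, and CDC45 and FEN1 in ldR-H460. CDC45, which rides with MCM and GINS at the fork, had 18.2 CPM in ldR-H460, 31.6 in mdR-H460 and 37.6 in H460, 2.06-fold lower in ldR-H460 (1.73 to 2.45). Of the helicase activation genes, 4 of 10 were at least 1.5-fold lower in ldR-H460 and 4 of 9 in mdR-H460, with medians of -0.39 and -0.54. With TMM scaling 2 were lower in each, and the medians were -0.25 and -0.35. PRIM1, the catalytic primase subunit, had 54.5, 61.7 and 93.8 CPM, so both derivatives lay below H460. POLA2, a subunit of polymerase alpha, had 9.90, 15.4 and 20.5 CPM, and POLA1, its catalytic subunit, had 6.97, 7.28 and 13.4 CPM. Of 9 polymerase and primase genes, 4 were lower in ldR-H460 and 2 in mdR-H460, none higher, with medians of -0.40 and -0.42. With TMM scaling 3 were lower and 1 higher in ldR-H460 and 1 was lower in mdR-H460, with medians of -0.26 and -0.23. Of all genes 21.1% and 20.3% were lower without that scaling, so the polymerase and primase share in mdR-H460 was near the background.

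Behind the fork, ATAD5, which unloads PCNA from finished DNA, had 15.8 CPM in ldR-H460, 14.3 CPM in mdR-H460 and 41.7 CPM in H460. It was 2.64-fold (2.21 to 3.17) and 2.91-fold (2.43 to 3.50) lower in ldR-H460 and mdR-H460 than in H460. FEN1, the nuclease that trims Okazaki fragments, had 49.95, 86.2 and 105.5 CPM, and ldR-H460 was 2.11-fold below H460 (1.90 to 2.34). RFC4 of the clamp loader had 43.1, 68.1 and 78.1 CPM. DNA ligase LIG1 did not share this order, with 18.1, 11.8 and 13.6 CPM. Of 14 genes of clamp loading and Okazaki maturation, 4 were lower in ldR-H460 and 1 in mdR-H460, none higher. Among fork and checkpoint genes, RPA2, a subunit of the single-strand binding protein, had 35.9, 74.6 and 67.2 CPM and was 1.87-fold lower in ldR-H460 than in H460 (1.65 to 2.12). The checkpoint kinase gene CHEK1 had 26.03, 22.8 and 29.7 CPM, less than 1.5-fold apart from H460 in either derivative. Of 11 genes in that list, 2 were lower in ldR-H460, and 1 was higher and 1 lower in mdR-H460. In both lists the shares of lower genes are near or under the background of 21.1% and 20.3%.

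**Figure D3:**
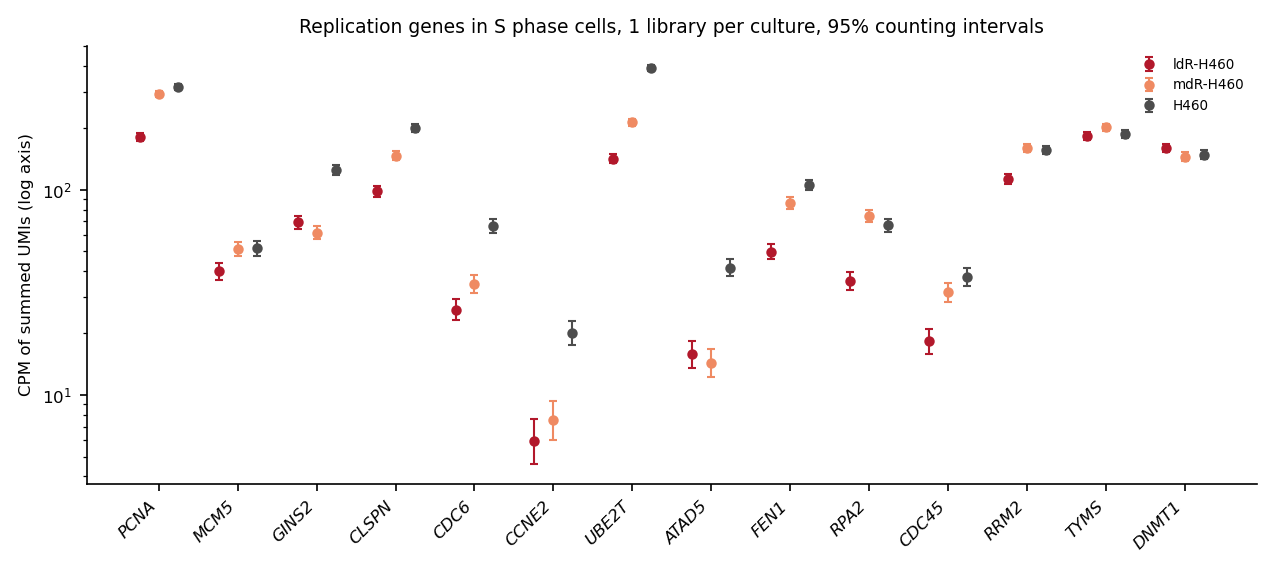
CPM (log axis) of 14 replication genes summed over S phase cells of ldR-H460, mdR-H460 and H460, with exact Poisson 95% intervals for counting error. CDC6, CCNE2, ATAD5 and GINS2 are lower in both derivatives than in H460, PCNA is lowest in ldR-H460, and DNMT1 is nearly level.

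Among genes of the G1/S switch, CCNE2 and E2F1 were at least 1.5-fold lower and MYC at least 1.5-fold higher in both derivatives than in H460. CCNE2, which encodes cyclin E2, had 5.96 CPM in ldR-H460, 7.54 in mdR-H460 and 20.04 in H460. That was 3.36-fold lower in ldR-H460 (2.54 to 4.51) and 2.66-fold lower in mdR-H460 (2.06 to 3.45). CCNE1, the gene of cyclin E1, had 10.6, 16.9 and 22.5 CPM and passed 1.5-fold in ldR-H460 only. E2F1, a transcriptional driver of S phase genes, had 40.5, 42.6 and 70.9 CPM. MYC, a growth-promoting transcription factor, ran the other way at 93.6, 72.7 and 43.0 CPM. The gene of the cell cycle inhibitor p21, CDKN1A, had 17.1, 31.0 and 29.5 CPM, lowest in ldR-H460. CDK6, a G1 kinase gene, had 34.8, 11.3 and 33.8 CPM, so mdR-H460 alone was low, 3.00-fold below H460 (2.45 to 3.69). Of 22 measured G1/S regulators, 4 were higher and 6 lower in ldR-H460 (median -0.18), and 2 higher and 6 lower in mdR-H460 (median -0.15), a median that turned positive at 0.04 with TMM scaling. Of all genes 8.58% were higher and 21.1% lower in ldR-H460, and 5.14% and 20.3% in mdR-H460.

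Nucleotide supply was close to level, and the enzymes that moved went both ways. TK1, the S phase thymidine kinase, had 109 CPM in ldR-H460, 148 in mdR-H460 and 198 in H460, 1.81-fold lower in ldR-H460 (1.69 to 1.95). MTHFD2, a mitochondrial enzyme of one-carbon metabolism, had 226, 186 and 116 CPM and was 1.96-fold and 1.61-fold higher in ldR-H460 and mdR-H460 than in H460. RRM1, the large subunit of ribonucleotide reductase, had 39.1, 45.1 and 52.5 CPM. Of 24 genes, 2 were higher and 3 lower in ldR-H460 (median -0.04, and 0.10 with TMM scaling), and 1 was higher and none lower in mdR-H460 (median 0.12). These counts are below the background.

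Among genes that copy chromatin, ATAD2, CASP8AP2 and EZH2 were lower in both derivatives and ASF1A was higher in mdR-H460. ATAD2, a bromodomain protein of replicating chromatin, had 41.0 CPM in ldR-H460, 40.7 in mdR-H460 and 73.7 in H460. CASP8AP2, needed to make histone mRNA, had 15.5, 14.7 and 34.3 CPM, and EZH2, the Polycomb methyltransferase, had 27.4, 30.5 and 46.3 CPM. ASF1A, which hands histones to new DNA, had 64.5, 88.1 and 44.0 CPM and was highest in mdR-H460, whereas its paralog ASF1B had 30.1, 43.2 and 49.6 CPM. The maintenance methylation genes were nearly level, DNMT1 at 159, 145 and 148 CPM and UHRF1 at 18.7, 20.5 and 25.5 CPM. Of 20 genes, 1 was higher and 5 lower in ldR-H460 (median -0.40), and 1 higher and 6 lower in mdR-H460 (median -0.32). As a list they were near the background of 21.1% and 20.3% of genes lower. With TMM scaling 2 were higher and 4 lower in ldR-H460 (median -0.26), and 1 was higher and 4 lower in mdR-H460 (median -0.13).

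Histone transcripts differed gene by gene. HIST1H4C, by far the most abundant, had 1185 CPM in ldR-H460, 1033 in mdR-H460 and 903 in H460. HIST1H2BH had 24.9, 10.7 and 3.84 CPM, 6.49-fold higher in ldR-H460 (4.66 to 9.25) and 2.78-fold higher in mdR-H460 (1.94 to 4.06). The linker histone gene HIST1H1C ran the opposite way, with 29.4, 37.3 and 73.9 CPM. HIST2H2AC had 19.4, 15.6 and 37.7 CPM. Replication-dependent histone mRNAs mostly lack a poly(A) tail, and 3' capture with oligo(dT) sees only part of them. Members of these families are near-identical, so the assignment of reads among them is uncertain.

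Homologous recombination and Fanconi genes, which mend broken or cross-linked forks, were the lowest replication list in ldR-H460. Of 19 measured genes, 11 were at least 1.5-fold lower in ldR-H460 (median -0.81) and 9 in mdR-H460 (median -0.54), and none was higher in either, against backgrounds of 21.1% and 20.3% lower. BRCA1 had 22.4 CPM in ldR-H460, 18.8 in mdR-H460 and 43.7 in H460. BRCA2, a mediator of strand exchange, had 11.8, 10.2 and 24.6 CPM, and both genes were about level between the derivatives. UBE2T, the ubiquitin-conjugating enzyme of the Fanconi pathway, had 141, 213 and 391 CPM, 2.77-fold lower in ldR-H460 (2.61 to 2.94) and 1.84-fold lower in mdR-H460 (1.75 to 1.94). BLM, a helicase that resolves recombination intermediates, had 6.51, 7.28 and 16.6 CPM, and FANCI was the counterexample at 40.7, 28.4 and 28.7 CPM. In cells low in both scores the same list had medians of 0.10 in ldR-H460 and -0.14 in mdR-H460. TMM scaling gave -0.67 and -0.35 in S phase cells. With the H460 cuts in every culture, a choice made after the data were seen, the medians were -0.57 and -0.52 and 8 genes were lower in each. With cells under 4000 detected genes alone, they were -0.76 and -0.39.

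Mismatch repair, damage tolerance and cohesin genes were lower more often than all genes in mdR-H460, and in ldR-H460 cohesin genes were close to the background. MSH6, a mismatch repair protein, had 48.6 CPM in ldR-H460, 38.1 in mdR-H460 and 73.5 in H460. RAD18, the ligase that modifies PCNA at stalled forks, had 6.60, 11.9 and 18.3 CPM, and DTL, which directs CDT1 to degradation, had 21.9, 16.3 and 41.3 CPM. Both derivatives lay below H460 at all 3. Of 18 genes, 6 were lower in ldR-H460 (median -0.43) and 9 in mdR-H460 (median -0.57), and none was higher. With TMM scaling 4 were lower in ldR-H460, and 5 were lower and 1 higher in mdR-H460. ESCO2, which establishes cohesion during S phase, had 10.4, 13.96 and 27.6 CPM, and WAPL, the cohesin release factor, had 24.4, 23.2 and 42.1 CPM. STAG2, a cohesin subunit, had 50.4, 25.5 and 44.2 CPM and was low in mdR-H460 alone. Of 11 cohesin genes, 3 were lower in ldR-H460 (median -0.47) and 6 in mdR-H460 (median -0.68), none higher. In mdR-H460 the medians were about as low in low-score cells, at -0.49 for mismatch repair and damage tolerance and -0.48 for cohesin, so they were not particular to S phase cells.

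Several mitotic genes of the M score were higher in S phase cells of the derivatives than of H460. The M score genes summed to 953 CPM in ldR-H460, 1072 in mdR-H460 and 580 in H460. CCNB1 had 98.1, 159 and 28.0 CPM, CCNB2, the second mitotic cyclin, had 57.1, 66.3 and 19.6 CPM, and PLK1, a mitotic kinase, had 19.6, 27.8 and 5.25 CPM. CDKN3, a phosphatase of cyclin-dependent kinases, had 396, 286 and 98.0 CPM. All 4 were higher in both derivatives, CCNB1 by 3.50-fold in ldR-H460 and 5.68-fold in mdR-H460. At least 1.5-fold higher were 5 of 10 in ldR-H460 (median 0.21) and 7 of 10 in mdR-H460 (median 0.93), and none was lower. Others of the 10 were closer together: TOP2A, topoisomerase II alpha, had 41.7, 50.4 and 54.4 CPM, and CENPF, a kinetochore protein, had 104, 96.9 and 125 CPM. These genes set the M score, and the cut that removes cells by it was lower in H460. With the H460 cuts in every culture, which left 247 cells of ldR-H460, 291 of mdR-H460 and 609 of H460, CCNB1 had 62.8, 88.1 and 28.0 CPM, CCNB2 48.8, 45.1 and 19.6 CPM, PLK1 11.1, 12.8 and 5.25 CPM and CDKN3 332, 228 and 98.0 CPM. CDC20, an activator of the anaphase-promoting complex, had 57.2, 88.2 and 37.2 CPM with each culture's own cuts and 33.9, 49.6 and 37.2 CPM with the H460 cuts, so its place in ldR-H460 rested on the cuts. So did that of other score genes: with the H460 cuts, CENPF had 73.3, 74.9 and 125 CPM, TOP2A 34.9, 37.0 and 54.4 CPM, and UBE2C 92.6, 160.5 and 144 CPM. Of the 10 genes, 4 were then higher and 5 lower in ldR-H460 (median -0.39), and 4 higher and 1 lower in mdR-H460 (median 0.29).

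G2/M genes outside the score were not higher as a list. Of 35 measured in ldR-H460, 2 were higher and 13 lower (median -0.39), and of 38 in mdR-H460, 3 were higher and 4 lower (median -0.11). With TMM scaling 3 were higher and 8 lower in ldR-H460 (median -0.25), and 8 were higher and 2 lower in mdR-H460 (median 0.08). CENPA, the centromeric histone, had 26.8 CPM in ldR-H460, 27.1 in mdR-H460 and 13.4 in H460, and DLGAP5, a spindle protein, had 13.1, 18.3 and 7.87 CPM. Lower were CKAP2L, another spindle protein, at 13.1, 23.8 and 38.4 CPM, and ANLN, the cytokinesis scaffold anillin, at 18.0, 19.9 and 37.9 CPM. AURKB, the Aurora B kinase gene, had 53.3, 97.1 and 78.0 CPM, so it was highest in mdR-H460. In cells low in both scores the list's median log2 ratios to H460 were 0.78 in ldR-H460 and 0.53 in mdR-H460. Those cells too were taken under a higher M cut in the derivatives. In S phase cells taken by each culture's own cuts, the mdR-H460 median was at that of all genes, and only the ldR-H460 median lay below it. This rested on the cuts. With the H460 cuts in every culture, 1 was higher and 18 lower in ldR-H460 (median -0.60). In mdR-H460, 0 were then higher and 9 lower (median -0.32).

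**Figure D4:**
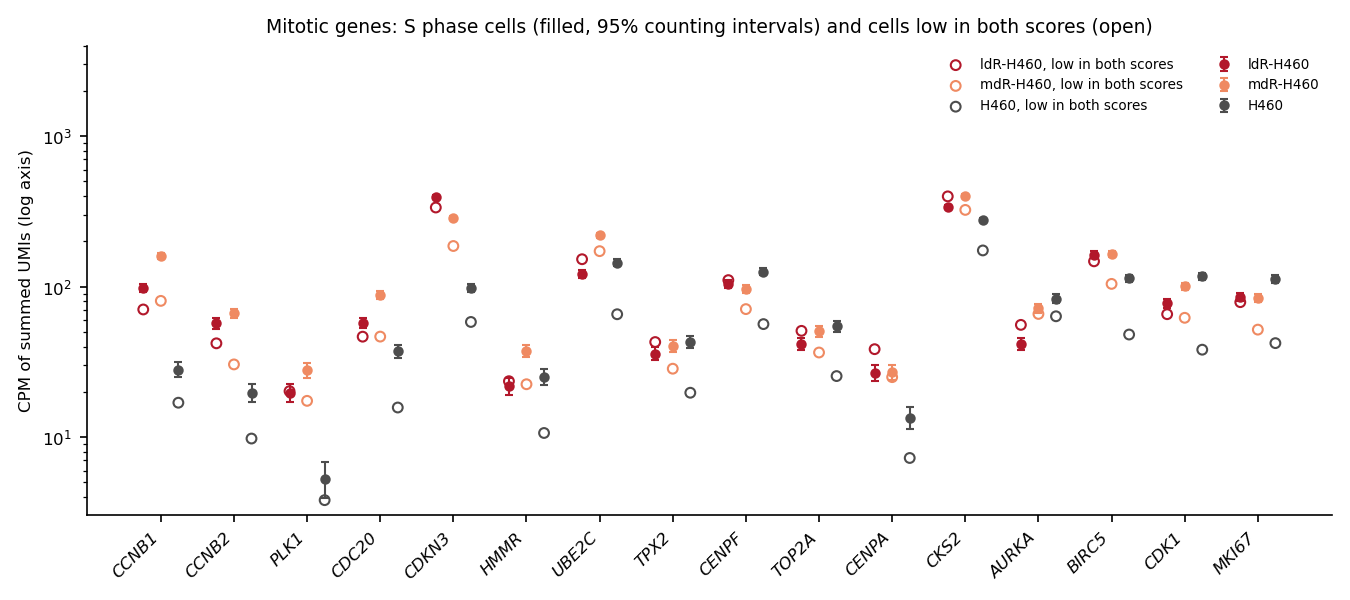
CPM (log axis) of 16 G2/M genes in S phase cells (filled, with exact Poisson 95% intervals) and in cells low in both scores (open) of ldR-H460, mdR-H460 and H460. CCNB1, CCNB2, PLK1 and CDKN3 are higher in both derivatives than in H460, and in ldR-H460 filled points of several genes lie at or below the open ones, as for UBE2C at 121 against 152 CPM.

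The contrast between S phase cells and cells low in both scores was shallower in ldR-H460 than in the other cultures. It is the contrast the choice made, so it is described without a test. S phase cells were at least 1.5-fold higher at 80 genes in ldR-H460 (1.32%), 435 in mdR-H460 (7.30%) and 494 in H460 (7.58%), and at least 1.5-fold lower at 39 (0.643%), 242 (4.06%) and 129 (1.98%). The S score genes had median log2 ratios of 1.21, 1.43 and 1.69, as the choice of cells sets them. For late S genes the medians were 0.50, 1.00 and 1.43, for homologous recombination and Fanconi genes 0.39, 0.95 and 1.19, and for G2/M genes outside the score 0.08, 0.63 and 1.16. PRIM1 gives an example, with 54.5 CPM in S phase cells against 42.4 CPM in low-score cells of ldR-H460, 61.7 against 29.1 CPM in mdR-H460 and 93.8 against 33.7 CPM in H460. The low-score cells of ldR-H460 held the most primase RNA and its S phase cells the least. The summed late S genes had 1550, 1510 and 1754 CPM in S phase cells of ldR-H460, mdR-H460 and H460, against 1237, 809 and 726 CPM in low-score cells. For these late S genes ldR-H460 was highest among the low-score cells.

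**Figure D5:**
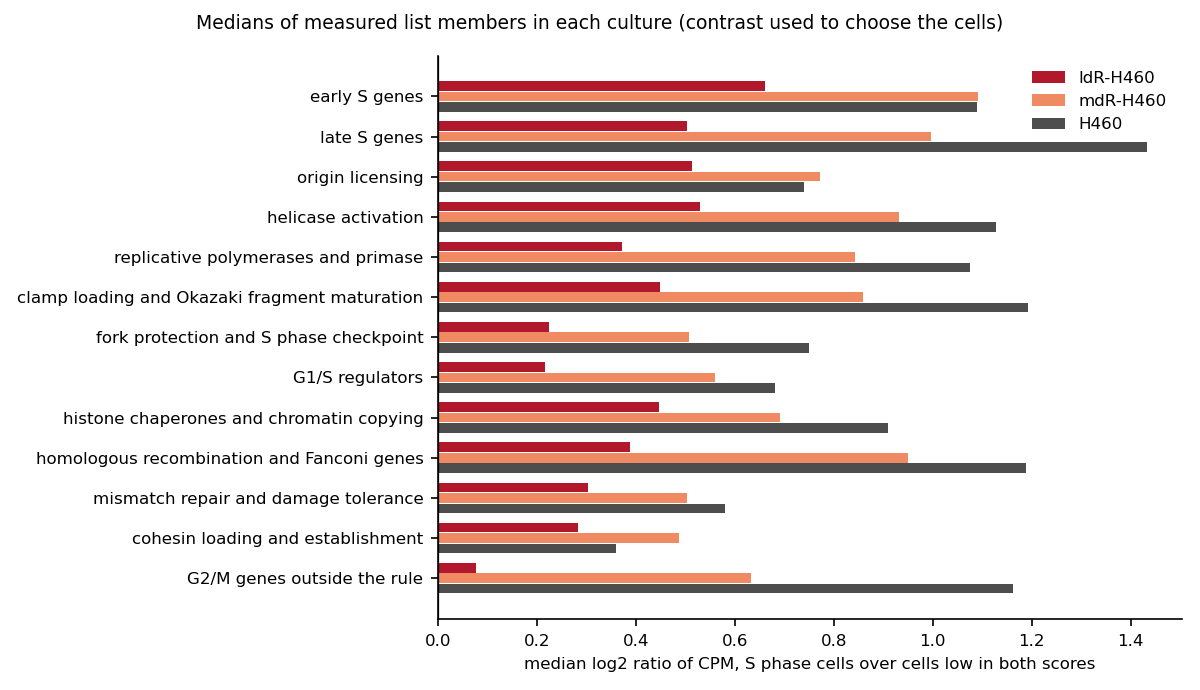
Median log2 ratio of S phase cells over cells low in both scores for 13 gene lists, one bar for each of ldR-H460, mdR-H460 and H460. For late S genes the bars reach 0.50, 1.00 and 1.43, and for G2/M genes outside the score 0.08, 0.63 and 1.16.

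The balance of early and late S genes also differed when their UMIs were summed. Early S genes, whose RNA peaks at the G1/S boundary, summed to 410 CPM in S phase cells of ldR-H460, 421 in mdR-H460 and 593 in H460. The ratio of early to late S UMIs was 0.264 (0.256 to 0.273), 0.279 (0.270 to 0.288) and 0.338 (0.329 to 0.348), so H460 stood above both derivatives beyond counting error. In low-score cells early S genes had 263, 203 and 275 CPM beside 1237, 809 and 726 CPM of late S genes, so H460 had the most early relative to late RNA there too. Of 13 early S genes, 6 were lower in ldR-H460 (median -0.47) and 4 in mdR-H460 (median -0.41). Of 14 late S genes, 7 and 3 were lower (medians -0.55 and -0.27), and none was higher in either list. Gene by gene, late S genes of ldR-H460 were thus at least as far below H460 as early ones, unlike in the summed ratio. Of all genes 21.1% and 20.3% were lower, so the late S share in mdR-H460 was near the background. With TMM scaling 3 early and 3 late S genes were lower in mdR-H460 (medians -0.22 and -0.08). All early and most late S genes also belong to the lists by role above, so these counts are not independent of those. Position within S phase was not measured by DNA content.

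ldR-H460 was then set directly against mdR-H460, which asks how the long-term and mid-term derivatives differ. ldR-H460 was at least 2-fold higher at 175 of 6212 genes (2.82%) and at least 2-fold lower at 161 (2.59%), and 9.93% and 9.51% of genes were at least 1.5-fold higher and lower. Of the replication lists, licensing was lower in ldR-H460 at 4 of 10 genes and higher at none (median -0.23, beside -0.02 for all genes), while homologous recombination and Fanconi genes were about level (median -0.05, 1 of 16 higher and 2 lower). PCNA, a score gene, had 180 CPM in ldR-H460 against 294 CPM in mdR-H460, and RPA2 had 35.9 against 74.6 CPM. FEN1 was likewise lower in ldR-H460, at 49.95 against 86.2 CPM. STAG2 and CDK6 were higher in ldR-H460, at 50.4 against 25.5 CPM and at 34.8 against 11.3 CPM. G2/M genes outside the score were lower at 10 of 37 and higher at none (median -0.35), and M score genes lower at 4 of 10.

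Of genes that bear on how S phase cells meet drugs, SLFN11 was among those fixed for naming. It is a putative helicase that blocks stressed forks and whose loss is known to protect cells from DNA-damaging drugs. It lay under the 10 CPM minimum in every culture and is not among the genes counted here. It had 1 UMI in S phase cells of ldR-H460, 0 in mdR-H460 and 68 in H460, where it stood at 6.37 CPM. The ldR-H460 level was 69.5-fold below that of H460, with a wide interval of 12.1 to 2784. With 0 counted as the floor of 3 UMIs, mdR-H460 was at least 24.5-fold lower, and 1 UMI and 0 UMIs cannot be told apart. Low-score cells had 0.197, 0 and 4.93 CPM, so the difference was not confined to S phase cells. TDP2, which repairs topoisomerase II damage, had 51.6, 70.1 and 34.6 CPM, and SLC29A1, the importer of nucleoside drugs, had 9.81, 20.6 and 20.8 CPM. Of 19 genes in the list, 6 were lower in ldR-H460 (median -0.43), and 2 were higher and 2 lower in mdR-H460 (median -0.03, and 0.16 with TMM scaling). Of all genes 21.1% were lower in ldR-H460, and 5.14% were higher and 20.3% lower in mdR-H460. The labels used here name no drug given to these cultures.

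The widest ratios belonged to genes outside the cell cycle, and low-score cells showed them at a like size. At least 2-fold differences in low-score cells were about as common, at 4.25% of genes higher and 9.04% lower in ldR-H460 than in H460, 2.06% and 6.65% in mdR-H460 against H460, and 2.61% and 3.82% in ldR-H460 against mdR-H460. PKIB, an inhibitor of protein kinase A, had 24.5 CPM in S phase cells of ldR-H460, 31.5 in mdR-H460 and 0.0937 in H460, and 22.2, 27.9 and 0.153 CPM in low-score cells. PAEP, which encodes glycodelin, had 0, 0.434 and 115 CPM against 0, 1.07 and 120 CPM in low-score cells. CDH11, a mesenchymal cadherin, had 10.6, 0 and 155 CPM against 13.1, 0.196 and 183 CPM. Genes whose ratio to H460 differed most between S phase and low-score cells in ldR-H460 were of mitosis on the lower side (AURKB, CENPA, CEP55 and UBE2C, besides NDUFA4L2). UBE2C belongs to the M score, and the M cut of low-score cells was 18.1 in ldR-H460 and 11.7 in H460. Their median M scores were 8.55 and 1.15. The choice of cells thus bears on these mitotic genes, and its part was not tested. On the upper side they included the stress genes DDIT4 and GDF15 and the calprotectin genes S100A8 and S100A9.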

How the data were processed

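RNA was measured as UMI counts per gene and cell in 1 library for each of ldR-H460, mdR-H460 and H460. The deposited tables hold whole-number counts without normalization, for cells the authors had kept after quality filtering, per the labels and the series text. Per the submitters' processing notes, Cell Ranger 3.0.2, Seurat 3.0 and build GRCh38 were involved, with no step named for any of them or for a gene annotation. Of the per-sample value columns, all were used.

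Cells with at least 5000 UMIs were scored, and the top 20% by S outside the top 20% by M were taken within each library. The S phase cells, gene lists and comparisons were chosen with earlier results of these data known. UMIs were summed over the cells of a class and divided by their total to give CPM. Comparisons between libraries needed 10 CPM in 1 of the pair. Genes were counted at 2-fold, list members at 1.5-fold. S phase and low-score cells of a culture were compared at 10 CPM or more in the higher of the 2. Genes named because their ratio differed most between these cells needed 25 CPM in 1 of the pair of libraries, in both kinds of cells. A count of 0 was set to a floor of 3 UMIs (0.275, 0.260 and 0.281 CPM in S phase cells of ldR-H460, mdR-H460 and H460). Sums have exact Poisson, ratios exact binomial-based and shares exact Clopper-Pearson intervals at 95%, for counting error only. Shares were also computed after thinning each cell at random to 5000 UMIs, which every scored cell had. Doublets were not called and all cells were kept.

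Named were the score genes, up to 4 members of each replication list and 3 of each other list with the widest ratios, the 5 genes at each end of a ratio, the 5 in each direction whose ratio differed most between S phase and low-score cells, and a fixed set. RRM2, SLBP and KRT18 as checks of the cells were chosen after their values were seen. Only some of the genes the rule names are given, and a few are not reported here. Promoters come from the RefSeq table of GRCh38.p14. MCM5, which the rule also names, is not shown. Alternatives used edgeR 4.0.16 (TMM) and DESeq2 1.42.0 for scaling factors only, in R 4.3.3, besides other filters, cuts and depths. Other steps ran in Python 3.11.15 with numpy 2.4.6, scipy 1.17.1, pandas 2.3.3 and matplotlib 3.10.9, and the counting of genes was tested on simulated data.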

Additional observations from a re-analysis of the deposited data

How the results depend on the processing

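No paired analysis was possible because each culture had 1 library, and for the same reason no replicate could be left out. The number of genes at least 2-fold apart followed the filter on low values. For mdR-H460 against H460 it was 664, and 1030 at 5 CPM, 180 at 50 CPM and 2916 with a filter of 4 UMIs alone. For ldR-H460 against H460 it was 815, and 255 at 50 CPM and 3238 with 4 UMIs alone. For ldR-H460 against mdR-H460 it was 336, and 562 at 5 CPM, 83 at 50 CPM, 2204 with 4 UMIs alone and 517 with totals that left out mitochondrial and ribosomal protein UMIs. Lower genes made up 72.9% of the calls for ldR-H460 against H460, 59.0% with TMM, 60.5% with DESeq2 factors and 64.1% without mitochondrial and ribosomal protein UMIs. For mdR-H460 against H460 they made up 83.4%, 70.4% with TMM and 71.7% with DESeq2 factors. For ldR-H460 against mdR-H460 they made up 47.9%, and 37.5% without mitochondrial and ribosomal protein UMIs. The S cut became 8.61 in mdR-H460 with cells of at least 10000 UMIs, 8.0, 8.0 and 10.0 in ldR-H460, mdR-H460 and H460 after thinning, and 7.96 in mdR-H460 and 8.74 in H460 with cells under 4000 genes, a limit that every ldR-H460 cell met. The share at the H460 cut became 15.7% in mdR-H460 at 10000 UMIs, 13.4% in ldR-H460 and 19.1% in mdR-H460 after thinning, and 9.42% in ldR-H460 with cells under 4000 genes. S100A8 turned from a log2 ratio of -1.28 to 2.21 in mdR-H460 against H460 without cells high in S100A8 or HSPA6, and the histone list median from -0.91 to 0.30 with 4 UMIs alone. The removal of cells used S100A8 itself, and the filter of 4 UMIs took the histone median over more genes. Any further cause was not tested. Of the other values under an alternative, 1742 list medians and 12512 gene ratios stayed within counting error and 249 and 1566 moved beyond it. For a list median, that error was taken from the 1 gene nearest to it. The filters on low values leave the ratio of a gene as it is, so gene ratios under them stayed by design.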

Other observations

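GDF15, DDIT3 and DDIT4 were lower in S phase than in low-score cells of mdR-H460 and H460. They are named partly because their ratios differed between these cells, so this is a description of these 3 genes. GDF15, a stress-induced secreted factor, had 37.5 CPM in S phase cells against 52.4 CPM in low-score cells of ldR-H460, 97.5 against 241 CPM in mdR-H460 and 33.3 against 88.1 CPM in H460. DDIT3, a transcription factor of the unfolded protein response, had 9.44 against 9.90 CPM in ldR-H460, 21.4 against 114 CPM in mdR-H460 and 12.2 against 59.2 CPM in H460. DDIT4, an inhibitor of mTOR signalling, had 40.6 against 37.9 CPM, 39.7 against 115 CPM and 25.7 against 68.2 CPM in the same order. Cells high in HSPA6 and DDIT3 were 0 of 818, 1 of 632 and 0 of 609 S phase cells of ldR-H460, mdR-H460 and H460, and 0 of 2797, 74 of 2472 and 36 of 2471 low-score cells. After thinning, the median cell had 9, 9 and 8 UMIs of the unfolded protein and amino acid stress list in S phase cells and 8, 9 and 8 in low-score cells. For heat shock genes the median log2 ratios of S phase over low-score cells were 0.32, 0.42 and 0.27. At least 1.5-fold higher were 2 of 12 in ldR-H460, 1 of 13 in mdR-H460 and 1 of 13 in H460, and 0, 1 and 1 were lower. Of all genes 1.32%, 7.30% and 7.58% were higher, so in mdR-H460 and H460 the list was near the background. Cells high in the calprotectin genes S100A8 and S100A9 were 1 of 818 (0.122%), 85 of 632 (13.4%) and 40 of 609 (6.57%) S phase cells.

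Lists outside the cell cycle also differed within S phase cells, and the differences were not particular to these cells. Of all genes, 21.1% were at least 1.5-fold lower and 8.58% higher in ldR-H460 than in H460. In mdR-H460 against H460 these shares were 20.3% and 5.14%. Between the derivatives, 9.51% of genes were lower in ldR-H460. MHC class I presentation genes were at least 1.5-fold lower at 8 of 12 in ldR-H460 (median -0.91) and 6 of 12 in mdR-H460 (median -0.61), with HLA-B at 10.1, 18.8 and 91.9 CPM in ldR-H460, mdR-H460 and H460. HLA genes are alike, so the assignment of reads among them is uncertain. NRF2 targets were higher at 9 of 21 in ldR-H460 (median 0.40) and 5 of 21 in mdR-H460 (median 0.16), and AKR1C2, an aldo-keto reductase, had 247, 185 and 98.7 CPM. Proteasome genes were lower at 14 of 31 in ldR-H460 than in mdR-H460 (median -0.52), with PSMD12, a lid subunit, at 61.7 against 121 CPM. In low-score cells the medians for ldR-H460 and mdR-H460 against H460 were -0.79 and -0.44 for MHC class I genes. They were 0.37 and 0.20 for NRF2 targets. The low-score proteasome median for ldR-H460 against mdR-H460 was -0.56.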
